A study of Mus musculus with 3 samples.

Results

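Enteroendocrine cells are the hormone-secreting cells of the gut epithelium, and the barcodes described here were chosen by their transcripts. A barcode entered with at least 300 genes, at most 25% of its unique molecular identifiers (UMIs, counted transcript molecules) from mitochondrial genes, and at least 5 UMIs over 11 genes with at least 2 of them detected. These 11 rule genes were Chga, Chgb, Neurod1, Scgn, Fev, Pyy, Gcg, Insl5, Tph1, Cck and Sct. The barcode also had under 2% of its UMIs from 7 goblet cell genes and under 2% from 11 colonocyte genes. The rule took 55 of 16406 barcodes that passed the gene and mitochondrial filters. Of the 16406, 10111 counted as epithelial. These had at least 3 UMIs over 9 epithelial markers, and more than over 19 immune and stromal markers, or were members. Members counted as epithelial even where they missed these marker limits. BT mutant members with 2, 5 and 49 epithelial against 0, 18 and 142 immune and stromal UMIs missed them. Since the rule chose the members, levels of the rule genes are a description of what was chosen.

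The study took single cells from mouse colon and counted their transcripts by droplet sequencing of the 3′ ends. All mice were germ-free at the outset; they were colonized with BT mutant, colonized with BT WT, or given PBS. There was 1 library in each group, so no difference between the groups could be tested, and a library, its animals and its treatment cannot be told apart. The labels do not give the mutated gene, the strain or age of the mice, or how many animals went into a library, and BT is spelled as in the labels.

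Enteroendocrine cells are scattered singly among the absorptive and mucus-secreting cells of the colon and release peptide hormones or amines from dense-core granules into the underlying tissue. Enterochromaffin cells store serotonin, made from tryptophan by the enzyme Tph1, in granules whose matrix holds the chromogranins Chga and Chgb. L cells make peptide YY (Pyy), the glucagon-like peptides (from Gcg) and, in the colon, insulin-like peptide 5 (Insl5). These hormones act on gut movement, appetite and insulin release, and L cells and enterochromaffin cells are known to respond to nutrients and to products of gut bacteria.

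The libraries held 54943483, 55436776 and 42003444 UMIs over 8195, 8829 and 4425 barcodes with BT mutant, BT WT and PBS. Members had medians of 7502.5, 6549 and 6250.5 UMIs in those libraries, and single members ranged from 602 to 292277 UMIs. Between pairs of libraries 8 to 19 barcode sequences were shared, and none of them was a member.

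The rule took 12 of 3980 epithelial barcodes with BT mutant (0.302%, exact Clopper-Pearson 95% interval 0.156% to 0.526%). It took 15 of 4629 with BT WT (0.324%, 0.181% to 0.534%). With PBS it took 28 of 1502 (1.86%, 1.24% to 2.68%). The share was thus higher with PBS than in either colonized library, and the members of the PBS library differed in kind from the others. The size of these shares depended on the mitochondrial limit: at 10% in place of 25%, members were 0.932% of 858 epithelial barcodes with BT mutant, 0.925% of 757 with BT WT and 3.16% of 727 with PBS. The intervals, and all others given here, cover counting error only and not the difference between animals. They take each barcode as 1 cell, which was not tested.

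Members fell into 2 sets by their leading rule genes, a division made after the values were seen. In 26 granin-led barcodes Chga and Chgb held more than 50% of the rule UMIs, and in 28 peptide-led barcodes Pyy, Gcg and Insl5 held more than 50%. A single BT mutant barcode fell in neither set, with 4 Sct UMIs and 1 Pyy UMI. It also had 76 UMIs of tuft cell markers, the highest sum of these among the members.

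Granin-led barcodes were 11 of 3980 epithelial barcodes with BT mutant (0.276%, 0.138% to 0.494%), 12 of 4629 with BT WT (0.259%, 0.134% to 0.452%) and 3 of 1502 with PBS (0.200%, 0.0412% to 0.583%). The 3 counting intervals overlap. With 1 library in each group, a difference between the groups in this share could not be tested. The place of PBS in this order depended on the filters. The colonocyte limit removed 3 more granin-led PBS barcodes, with 577, 206 and 141 granin UMIs. Goblet and colonocyte limits of 5% made the PBS share the highest, at 0.399%. A mitochondrial limit of 10% gave 0.932% with BT mutant, 0.793% with BT WT and 0.138% with PBS (1 barcode). Peptide-led barcodes were 0 of 3980 with BT mutant, which allows a share of up to 0.0754% (3 counts; the exact interval ends at 0.0926%). They were 3 of 4629 with BT WT (0.0648%, 0.0134% to 0.189%) and 25 of 1502 with PBS (1.66%, 1.08% to 2.45%). The higher share of members with PBS thus lay in the peptide-led set.

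Among these, 22 of the 25 peptide-led PBS barcodes carried Mptx1, which encodes mucosal pentraxin, at 0.3% of their UMIs or more. With members at or above that level taken out of the count, and all epithelial barcodes kept in the denominator, members were 0.302% of epithelial barcodes with BT mutant (12), 0.302% with BT WT (14) and 0.399% with PBS (6, 0.147% to 0.867%), and the intervals overlap. The absence of peptide-led barcodes with BT mutant depended on another part of the rule. The goblet and colonocyte limits removed 18 of 73 barcodes that met the other criteria, and 4 of the 8 removed with BT mutant were peptide-led. With limits of 5% in place of 2%, peptide-led barcodes were 0.101% with BT mutant (4), 0.0648% with BT WT (3) and 1.73% with PBS (26), so the share stayed highest with PBS. Granin-led barcodes were then 0.377% with BT mutant (15), 0.281% with BT WT (13) and 0.399% with PBS (6). Both alternatives were chosen after the data were seen.

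**Figure D1:**
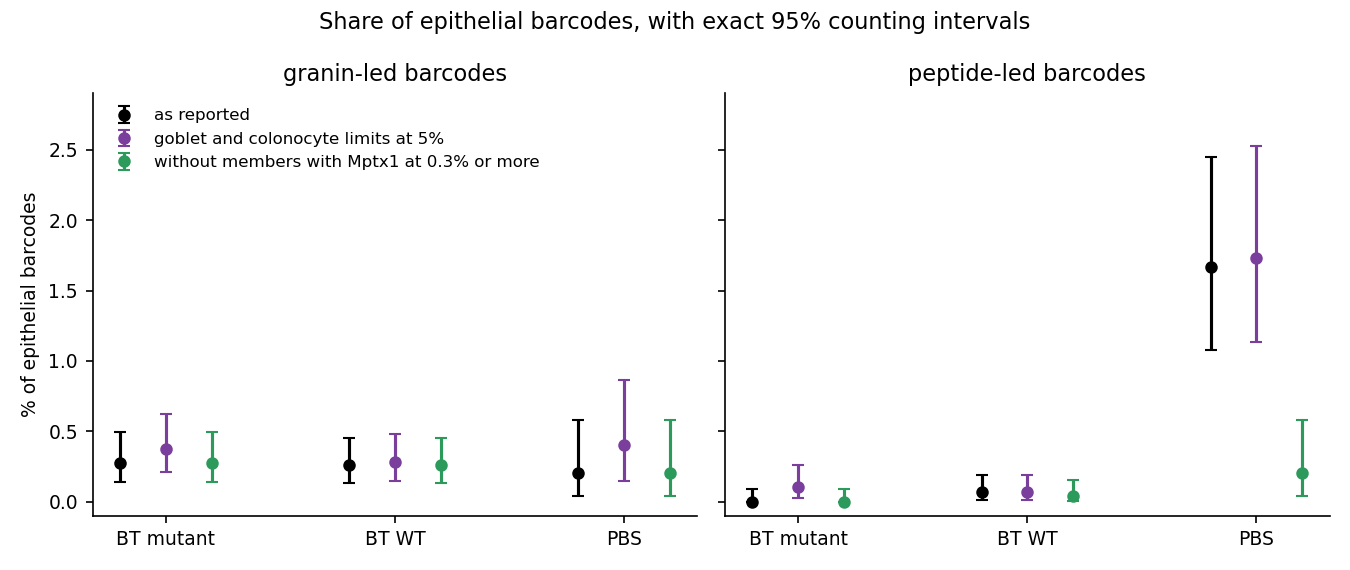
Granin-led (left) and peptide-led (right) barcodes as a percentage of epithelial barcodes in the BT mutant, BT WT and PBS libraries, with points for shares and bars for exact 95% intervals. The black points are the shares under the rule, the purple ones use goblet and colonocyte limits of 5%, and the green ones leave out members with Mptx1 at 0.3% of UMIs or more and keep all epithelial barcodes in the denominator; the peptide-led share of PBS is 1.66%, 1.73% and 0.200% under these settings.

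The 3 peptide-led BT mutant barcodes that were over the goblet limit held more peptide transcripts than most members. The richest had 1900 Pyy, 1098 Gcg and 221 Insl5 UMIs of 101267, with 2.55% of UMIs from goblet genes. A second had 1766 Pyy, 575 Gcg and 290 Insl5 UMIs of 79801, with 3.50% from goblet genes. Spink4, a secreted trypsin inhibitor that is among the 7 goblet genes of the rule, gave 704 and 680 UMIs in these 2 barcodes. The third had 221 Pyy, 92 Gcg and 93 Insl5 UMIs of 31884, with 2.63% from goblet genes and 369 Spink4 UMIs. Mptx1 was 1.75% of the UMIs of the third barcode, against 0.242% and 0.0326% in the first 2. Just inside the limits, the highest goblet share of a member was 1.997% and the highest colonocyte share 1.92%. Just outside, the lowest goblet share over the limit was 2.55% and the lowest colonocyte share over it 2.11%. At the lower edge of the rule, 4 members had exactly 5 rule UMIs, and 8 more barcodes that met the other limits had 4.

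The label was set beside Chga, Chgb, Neurod1, Pyy and Gcg, all of which the rule used, so their detection describes the members and is no independent check. Chga was detected in 39 of 55 members, Chgb in 30, Pyy in 30, Gcg in 27 and the transcription factor gene Neurod1 in 22. A granin and Neurod1 occurred together in 21 members, 9 of 12 with BT mutant, 8 of 15 with BT WT and 4 of 28 with PBS. Rule genes made up at least 1% of all UMIs in 16 members, 8 with BT mutant, 6 with BT WT and 2 with PBS. Neurod1 was found in 18 of 26 granin-led barcodes and in 3 of 25 peptide-led barcodes of the PBS library. These peptide-led barcodes had a median of 5614 UMIs, at which genes at the level of Chgb and Neurod1 in the PBS barcode with the most Pyy (15 and 5 UMIs of 206293) would mostly read 0. For most peptide-led PBS barcodes these genes therefore do not settle the label.

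**Figure D2:**
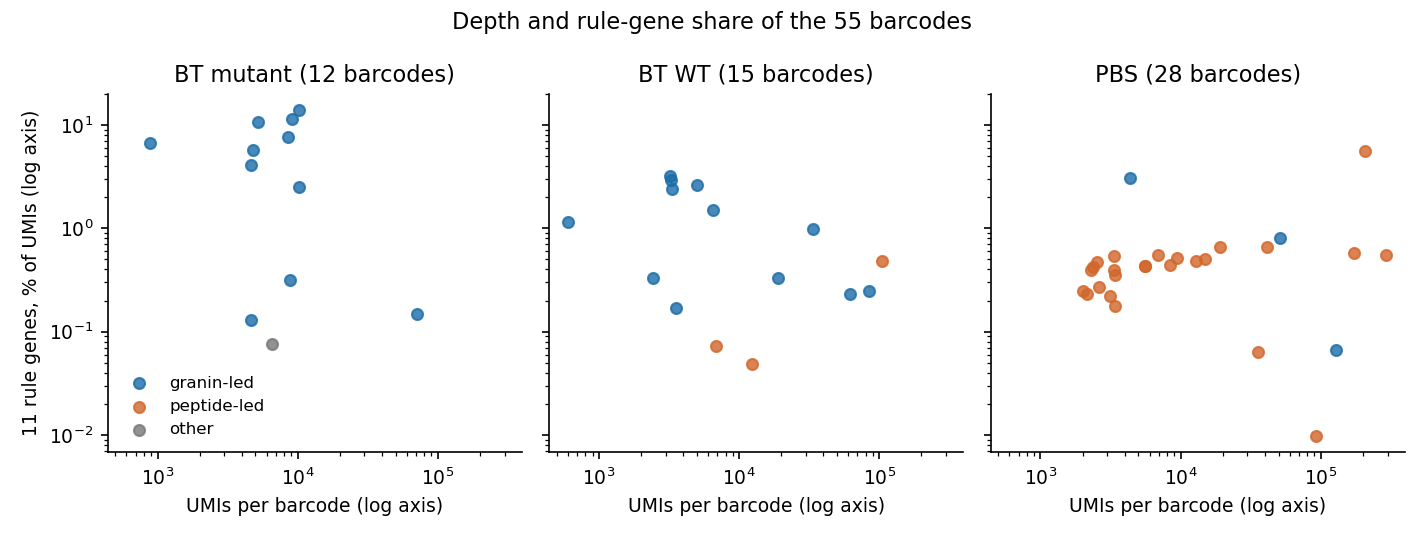
UMIs per barcode (horizontal, log axis) and the percentage of them from the 11 rule genes (vertical, log axis) for the 12 BT mutant, 15 BT WT and 28 PBS members, coloured by leading genes. In the granin-led set the rule genes reach 14.0% of UMIs with BT mutant, 3.23% with BT WT and 3.09% with PBS, while most peptide-led PBS barcodes lie in a narrow band below 1%.

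The granin-led barcodes were led by the chromogranin genes Chga and Chgb, whose proteins pack amines and peptides into granules. In the build GRCm38 (mm10), Chga lies at chr12:102554969-102565028 and Chgb at chr2:132781278-132795079, both on the plus strand. Tph1, the rate-limiting enzyme of serotonin synthesis in the gut, lies at chr7:46644641-46672537 on the minus strand. The promoters of these 3 genes are shown because each holds TGACG, the half-site bound by cyclic AMP response factors, on one of its strands (capitals; in Chgb 2 matches on opposite strands overlap as TGACGTCA). Each sequence runs from 250 bases before to 50 bases after the first start that RefSeq lists in GRCm38.p6.

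Chga (chr12:102554691-102554990, plus strand): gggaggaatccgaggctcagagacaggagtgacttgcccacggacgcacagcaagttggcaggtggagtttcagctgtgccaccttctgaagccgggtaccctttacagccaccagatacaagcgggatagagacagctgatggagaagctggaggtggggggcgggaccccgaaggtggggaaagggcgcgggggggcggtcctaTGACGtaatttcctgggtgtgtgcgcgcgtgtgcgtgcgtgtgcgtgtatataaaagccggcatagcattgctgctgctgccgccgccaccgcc
Chgb (chr2:132781392-132781691, plus strand): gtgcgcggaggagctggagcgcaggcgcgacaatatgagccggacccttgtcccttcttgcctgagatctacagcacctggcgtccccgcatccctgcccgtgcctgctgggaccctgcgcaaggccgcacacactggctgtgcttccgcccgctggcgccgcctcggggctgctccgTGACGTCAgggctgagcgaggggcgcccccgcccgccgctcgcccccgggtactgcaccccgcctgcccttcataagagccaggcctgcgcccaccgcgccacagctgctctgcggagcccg
Tph1 (chr7:46672488-46672787, minus strand): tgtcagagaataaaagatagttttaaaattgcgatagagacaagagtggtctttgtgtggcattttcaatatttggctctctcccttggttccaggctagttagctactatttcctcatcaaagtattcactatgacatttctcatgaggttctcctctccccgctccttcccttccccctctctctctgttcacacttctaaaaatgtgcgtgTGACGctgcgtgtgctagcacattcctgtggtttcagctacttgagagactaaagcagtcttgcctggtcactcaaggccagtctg

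TGACG occurred on either strand in 4 of the 11 rule genes (these and Cck, over all starts listed), against 20.8% of 32851 mouse promoters of the same length. The motif was chosen after matches in these genes were seen, and a match describes the letters of the window, not a bound site.

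Chga was detected in all 26 granin-led barcodes, as the rule and the division favour. Its level per barcode was 3.81 to 340.0 UMIs per 10000 with BT mutant (median 135.6), 2.83 to 112.0 with BT WT (median 45.1), and 1.80, 16.9 and 64.0 in the 3 PBS barcodes. The BT mutant barcodes reached the highest levels, and the ranges of the 3 libraries overlapped. Chgb ran from 4.30 to 1041 UMIs per 10000 with BT mutant (median 360.0), from 12.4 to 187.9 with BT WT (median 47.9), and was 4.62, 53.4 and 187.6 with PBS. Chgb was thus the more abundant granin transcript in most of these barcodes. Over barcodes with at least 20 granin UMIs, it made up a median of 66.8% of the granin UMIs with BT mutant (10 barcodes), 63.9% with BT WT (9) and 74.5% with PBS (3).

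Summed over the granin-led barcodes of a library, Chgb gave 23392 CPM (UMIs per 1000000 of the sum) with BT mutant (exact Poisson interval 22592 to 24213), 3627 CPM with BT WT (3383 to 3884) and 2268 CPM with PBS (2055 to 2496). Chga gave 6641 CPM with BT mutant (6218 to 7085), 1616 CPM with BT WT (1455 to 1791) and 752.3 CPM with PBS (632.0 to 888.8). Of the 3230 Chgb UMIs with BT mutant, 3 barcodes gave 1074, 870 and 483. The sums come from 11, 12 and 3 barcodes, too few for a fold between libraries under the design, and the barcodes of a library are not replicates. Of the 3 BT mutant barcodes with the lowest Chga level, 2 also carried 142 and 18 UMIs of immune and stromal markers. The part of such transcripts in the levels was not tested.

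Tph1 was detected in 11 of 11 granin-led barcodes with BT mutant, 11 of 12 with BT WT and 2 of 3 with PBS, and in none of the 28 peptide-led barcodes. It reached 0.423 to 156.5 UMIs per 10000 with BT mutant (median 15.3) and 0 to 31.1 with BT WT (median 3.59). The 3 PBS barcodes had 0, 4.27 and 34.3. Per 100 granin UMIs, over the barcodes with at least 20 granin UMIs, the median Tph1 count was 4.18 with BT mutant (10 barcodes), 3.01 with BT WT (9) and 6.08 with PBS (3).

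The other genes of serotonin handling differed among themselves. Ddc, which converts 5-hydroxytryptophan to serotonin, was detected in 8 of 11, 11 of 12 and 3 of 3 granin-led barcodes of the BT mutant, BT WT and PBS libraries, at 637.3, 310.0 and 114.5 CPM. In other epithelial barcodes Ddc gave 21.9 CPM with BT mutant, 28.1 with BT WT and 182 with PBS, so with PBS it was not higher in the granin-led sum. It was also detected in 10 of 25 peptide-led PBS barcodes. Slc18a1, the vesicular transporter that loads serotonin into granules, was found in 9 of 11, 9 of 12 and 3 of 3 barcodes, and its pooled level was 173.6 CPM against 1.34 CPM in other epithelial barcodes. Lmx1a, a transcription factor of the enterochromaffin lineage in mice, had 24 UMIs over 12 barcodes and 0 in the peptide-led set. Maoa, which breaks serotonin down, was lower in the granin-led set, at 275.9 CPM against 839 CPM in other epithelial barcodes.

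Of 13 serotonin genes outside the rule, 6 were at least 2-fold higher in the pooled granin-led barcodes than in other epithelial barcodes and 1 was at least 2-fold lower. The background was the 13469 genes with at least 50 UMIs over the granin-led and other epithelial sums together. Of these, 3.76% were at least 2-fold higher and 2.76% at least 2-fold lower, on the scale of CPM plus 10. This contrast was used to choose the members, so nothing is read from these counts beyond the description. The median log2 ratio of the serotonin list was 0.85, beside 0.10 over all genes. Lists had no UMI minimum, so Lmx1a counts in the list but not among the 13469. Pooled values weigh the deepest barcodes most. Of 547347 granin-led UMIs, single barcodes gave 127599 (PBS), 84013 and 61418 (BT WT) and 70887 (BT mutant). Rule genes were 0.0666%, 0.249%, 0.233% and 0.147% of UMIs in these barcodes. The lists were not counted with equal weight per barcode.

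**Figure D3:**
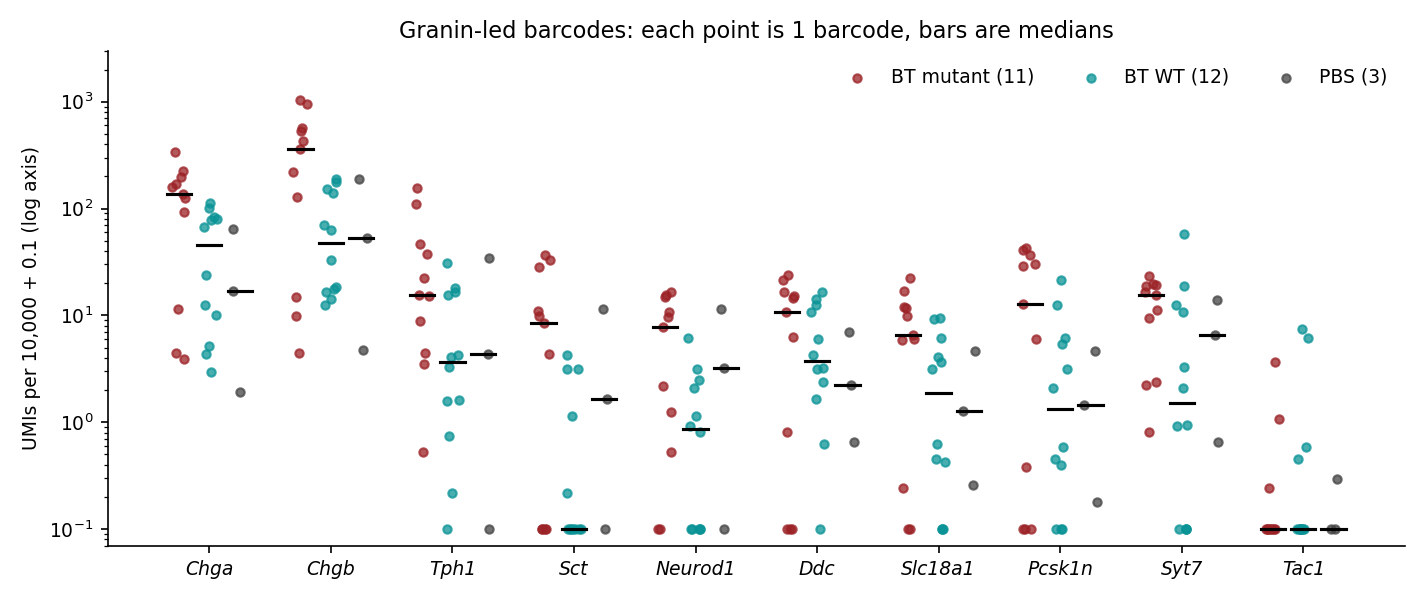
UMIs per 10000 plus 0.1 (log axis) of 10 genes in each granin-led barcode of the BT mutant (11), BT WT (12) and PBS (3) libraries, with bars for medians. Chgb medians are 360.0, 47.9 and 53.4 UMIs per 10000, and for each gene the libraries' ranges overlap.

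Sct, the gene of secretin, was found in 7 of 11 granin-led barcodes with BT mutant (105 UMIs, 760.4 CPM), 5 of 12 with BT WT (6 UMIs, 26.6 CPM) and 2 of 3 with PBS (13 UMIs, 70.9 CPM). The 5 BT mutant barcodes with the most Sct held 38, 24, 17, 10 and 10 UMIs, and they were among the 6 with the most rule UMIs. Tac1, the precursor of substance P and neurokinin A, was detected in 3 of 11, 4 of 12 and 1 of 3 granin-led barcodes of the BT mutant, BT WT and PBS libraries. Of the 34 Tac1 UMIs with BT WT, 25 came from 1 barcode. Tac1 was the only gene of the hormone list outside the rule with at least 20 UMIs over all members (44), and Sst, Nts and Gip had 0 UMIs in the granin-led and the peptide-led set. No member met the definition of a somatostatin-type cell.

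Neurod1, a transcription factor of the endocrine lineage, was detected in 9 of 11, 7 of 12 and 2 of 3 granin-led barcodes of the BT mutant, BT WT and PBS libraries. Its medians were 7.62 UMIs per 10000 with BT mutant, 0.764 with BT WT and 3.11 with PBS. Fev, a transcription factor of serotonin-making cells, had 14 UMIs with BT mutant, 16 with BT WT and 4 with PBS. Among 26 transcription factors outside the rule, 12 were at least 2-fold higher in the granin-led set than in other epithelial barcodes and 0 at least 2-fold lower (median log2 ratio 0.94). Over all genes these shares were 3.76% and 2.76%. Insm1, a zinc finger factor of endocrine differentiation, gave 63.9 CPM against 0.291 CPM in other epithelial barcodes, and Nkx2-2 gave 36.5 CPM against 0.119 CPM. Sox4, the most abundant of the list, gave 160.8 CPM against 29.6 CPM.

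The genes of granule processing and release were counted in the same way, beside 3.76% of all genes higher and 2.76% lower. Of 17 processing genes outside the rule, 11 were at least 2-fold higher and 0 at least 2-fold lower (median log2 ratio 1.38). Pcsk1n, an inhibitor of prohormone convertase 1, was the most abundant, with 140, 33 and 10 UMIs in 8 of 11, 9 of 12 and 3 of 3 barcodes of the BT mutant, BT WT and PBS libraries. Cpe, the carboxypeptidase that trims hormone precursors, gave 434.5 CPM with BT mutant, 97.4 with BT WT and 92.7 with PBS. Of 26 exocytosis genes, 14 were at least 2-fold higher and 0 lower (median log2 ratio 1.09). Syt7, a calcium sensor of granule fusion, led them with 98 UMIs with BT mutant, 55 with BT WT and 46 with PBS, and Snap25, part of the fusion machinery, had 39, 12 and 11 UMIs in the BT mutant, BT WT and PBS sums.

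Of 23 excitability genes, 9 were at least 2-fold higher and 0 lower in the granin-led set. This list and the next ones stand beside 3.76% of all genes higher and 2.76% lower. Scn3a, a voltage-gated sodium channel, was detected in 8 of 11, 10 of 12 and 2 of 3 barcodes, with 30, 56 and 9 UMIs with BT mutant, BT WT and PBS. It gave 173.6 CPM over the set against 0.367 CPM in other epithelial barcodes. Of 30 nutrient and microbe sensors, 3 were higher (Ffar2, Olfr78 and Piezo2) and 3 lower. Piezo2, the mechanically gated channel of enterochromaffin cells, led this list with 34 UMIs in 6 of 11 BT mutant barcodes, 30 in 9 of 12 BT WT barcodes and 12 in 2 of 3 PBS barcodes. Ffar2, a receptor for short-chain fatty acids, had 9 UMIs with BT mutant, 8 with BT WT and 4 with PBS. Of 28 receptors for neuromodulators and hormones, 3 were higher and 1 lower; the most abundant, Insr, the insulin receptor, gave 60.3 CPM against 54.1 CPM in other epithelial barcodes.

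Ranked after the values were seen by their ratio to other epithelial barcodes among genes outside the rule, the 5 leading genes of the granin-led set were Pcsk1n, Lmx1a, Scn3a, Snap25 and Gsdma. Gsdma, a gasdermin best known from skin, had 36 UMIs in 9 of 11 barcodes with BT mutant, 7 in 4 of 12 with BT WT and 9 in 1 of 3 with PBS. Map1b, a microtubule-associated protein of neurons, had 98 UMIs with BT mutant, 48 with BT WT and 24 with PBS.

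Other programs were compared in the same way, beside 3.76% of all genes higher and 2.76% lower. These pooled values too weigh the deepest barcodes most. Of 30 oxidative phosphorylation genes 0 were at least 2-fold higher and 1 lower (median log2 ratio -0.38), and of 18 clock genes 0 differed that far in either direction. Of 25 antigen presentation and interferon genes 0 were higher and 2 lower. Of 24 unfolded-protein-response genes 1 was higher and 0 lower, of 20 stress and dissociation genes 3 were higher and 0 lower, and of 18 Hox and position genes 2 were higher and 0 lower. Cox8a, a respiratory chain subunit, gave 1730 CPM in granin-led barcodes against 2044 CPM in other epithelial barcodes, and the immediate early gene Fos gave 2287 CPM against 1790 CPM. H2-K1, a class I antigen-presenting molecule, gave 767.3 CPM against 1220 CPM, and the clock repressor Nr1d1 gave 193.7 CPM against 161.2 CPM.

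The peptide-led set was led by Pyy, Gcg and Insl5. Pyy lies at chr11:102106676-102107832, Gcg at chr2:62474530-62483650 and Insl5 at chr4:103017872-103026842, each on the minus strand of GRCm38. The promoters of Pyy and Gcg, from RefSeq as above, are shown as those of the 2 most abundant peptide genes; capitals in Gcg mark CAGATG, an E-box, searched on both strands, and the Pyy window holds neither CAGATG nor TGACG.

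Pyy (chr11:102107783-102108082, minus strand): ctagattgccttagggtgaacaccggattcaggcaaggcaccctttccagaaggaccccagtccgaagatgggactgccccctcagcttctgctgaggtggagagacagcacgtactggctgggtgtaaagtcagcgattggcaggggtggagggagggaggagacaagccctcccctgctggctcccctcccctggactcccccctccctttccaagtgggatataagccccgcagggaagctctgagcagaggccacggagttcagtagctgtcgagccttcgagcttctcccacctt
Gcg (chr2:62483604-62483903, minus strand): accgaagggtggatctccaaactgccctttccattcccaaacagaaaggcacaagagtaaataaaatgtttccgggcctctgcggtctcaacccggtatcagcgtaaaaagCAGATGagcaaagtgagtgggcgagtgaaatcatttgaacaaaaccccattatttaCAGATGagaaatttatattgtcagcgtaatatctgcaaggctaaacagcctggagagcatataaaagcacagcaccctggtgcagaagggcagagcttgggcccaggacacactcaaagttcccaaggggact

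CAGATG occurred in 4 of the 11 rule genes (Gcg, Insl5, Cck and Sct, over all starts listed), against 17.2% of the 32851 promoters. Here too a count of genes stands beside a share of promoters, and Insl5 had no match at the first start listed. CAGATG too was chosen after matches were seen.

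With BT WT, 3 barcodes were peptide-led. The deepest, at 103897 UMIs, had 289 Pyy, 61 Gcg, 122 Insl5, 6 Cck and 19 Chga UMIs. It also held 352 Mptx1 UMIs (0.339% of its UMIs), 221 Spink4 and 54 Reg4 UMIs. The others had 3 Pyy and 2 Gcg UMIs of 12334, and 4 Pyy and 1 Insl5 UMI of 6858. The last 2 were thus at the edge of the rule.

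With PBS, 1 barcode of 206293 UMIs dominated the peptide counts. It held 5218 Pyy, 5130 Gcg, 1000 Insl5, 128 Cck and 30 Scgn UMIs, with 70 Chga, 15 Chgb and 5 Neurod1 UMIs, and rule genes were 5.63% of its UMIs. It supplied 72.8% of all Pyy UMIs of the PBS members, 87.5% of Gcg and 60.0% of Insl5. Over all PBS members Pyy gave 6299 CPM with this barcode and 2090 CPM without it, and Gcg 5153 CPM with it and 785.1 CPM without it. Its Mptx1 share of 0.299% lay just under the limit of 0.3%, which was set after the values were seen. None of the 22 barcodes over that limit reached a like peptide level, the highest having 930 Pyy UMIs of 292277.

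The 22 peptide-led PBS barcodes with Mptx1 at 0.3% or more resembled each other. Mptx1 was 0.372% to 4.41% of their UMIs (median 1.93%), Spink4 was detected in 22 and Reg4, a secreted lectin, in 21. Pyy, Gcg and Insl5 together gave 17.7 to 63.6 UMIs per 10000 (median 43.2), although the barcodes spanned 2025 to 292277 UMIs. These are rule genes, and entry needed at least 5 rule UMIs, so the rule bounds the low end in shallow barcodes. The barcode at 17.7 had 6 such UMIs of 3383, and shallow barcodes with less could not enter. Few endocrine markers were detected beside the peptides: Chga in 11 of 22, Chgb in 2, Neurod1 in 1 and Cck in 9. At their median of 4477 UMIs, Chgb and Neurod1 at the level of the dominant PBS barcode would mostly read 0. The 22 barcodes thus combined peptide hormone transcripts with crypt secretory genes, and are called by these genes here, with no cell type name.

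Summed over the 22 barcodes, Pyy made up 58.1% of the peptide UMIs, Gcg 21.8% and Insl5 20.1%. In the 6 of them with at least 50 peptide UMIs, Pyy was 52.7% to 60.0%, Gcg 16.8% to 34.8% and Insl5 12.5% to 25%. The dominant PBS barcode had another composition, with 46.0% Pyy, 45.2% Gcg and 8.81% Insl5. Mitochondrial shares of the 22 were low, at 2.75% to 8.96%, against a median of 10.5% in other epithelial barcodes of the library. The closest barcode sequences among the PBS members differed at 6 of 16 bases. Whether the 22 barcodes were 22 separate cells was not tested, and the peptide-led share of 25 of 1502 and its interval count them as such.

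**Figure D4:**
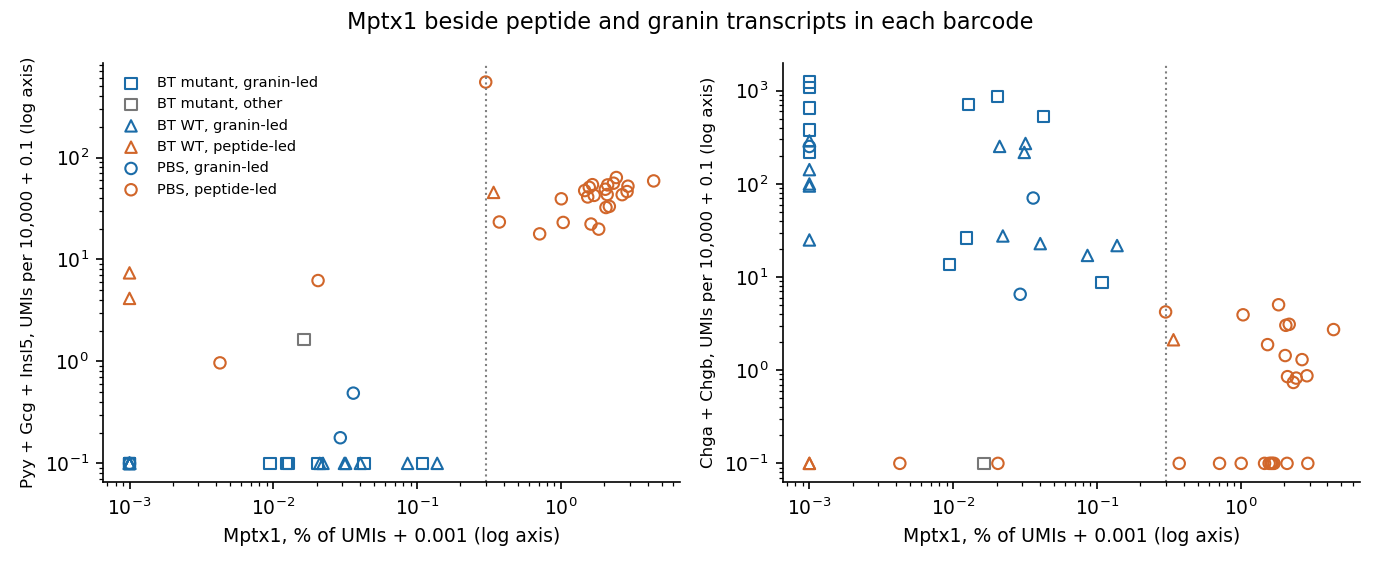
Mptx1 as a percentage of UMIs plus 0.001 (horizontal, log axis) against Pyy, Gcg and Insl5 (left) or Chga and Chgb (right) in UMIs per 10000 plus 0.1 (vertical, log axis), for each member by library and leading genes, with a dotted line at 0.3%. The 22 PBS barcodes right of the line form a cloud at 17.7 to 63.6 peptide UMIs per 10000, and 1 BT WT barcode lies right of it at 45.4. The granin-led barcodes lie left of the line.

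Mptx1 at that level was also found outside the members. Among other epithelial barcodes it was reached by 59 of 3968 with BT mutant, 94 of 4614 with BT WT and 95 of 1474 with PBS (1.49%, 2.04% and 6.45%). Of the 95 with PBS, 12 held any Pyy, Gcg or Insl5 UMI, 21 UMIs in all or 0.114 per 10000, and they had a median of 2544 UMIs against 4477 in the 22 members. Barcodes with 5 or more UMIs over at least 2 rule genes are absent from these 95 unless they were over the goblet or colonocyte limit, so their peptide count is bounded by the rule. With BT WT 1 of the 94 held a peptide UMI, and with BT mutant 2 of the 59 did, with 407 UMIs. Of these 407, 406 came from the third BT mutant barcode over the goblet limit described above. Among barcodes with B cell markers, which should lack these hormones, Pyy was detected in 0.344%, 0.248% and 1.51% with BT mutant, BT WT and PBS, at medians of 2899, 2917 and 3599 UMIs.

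**Figure D5:**
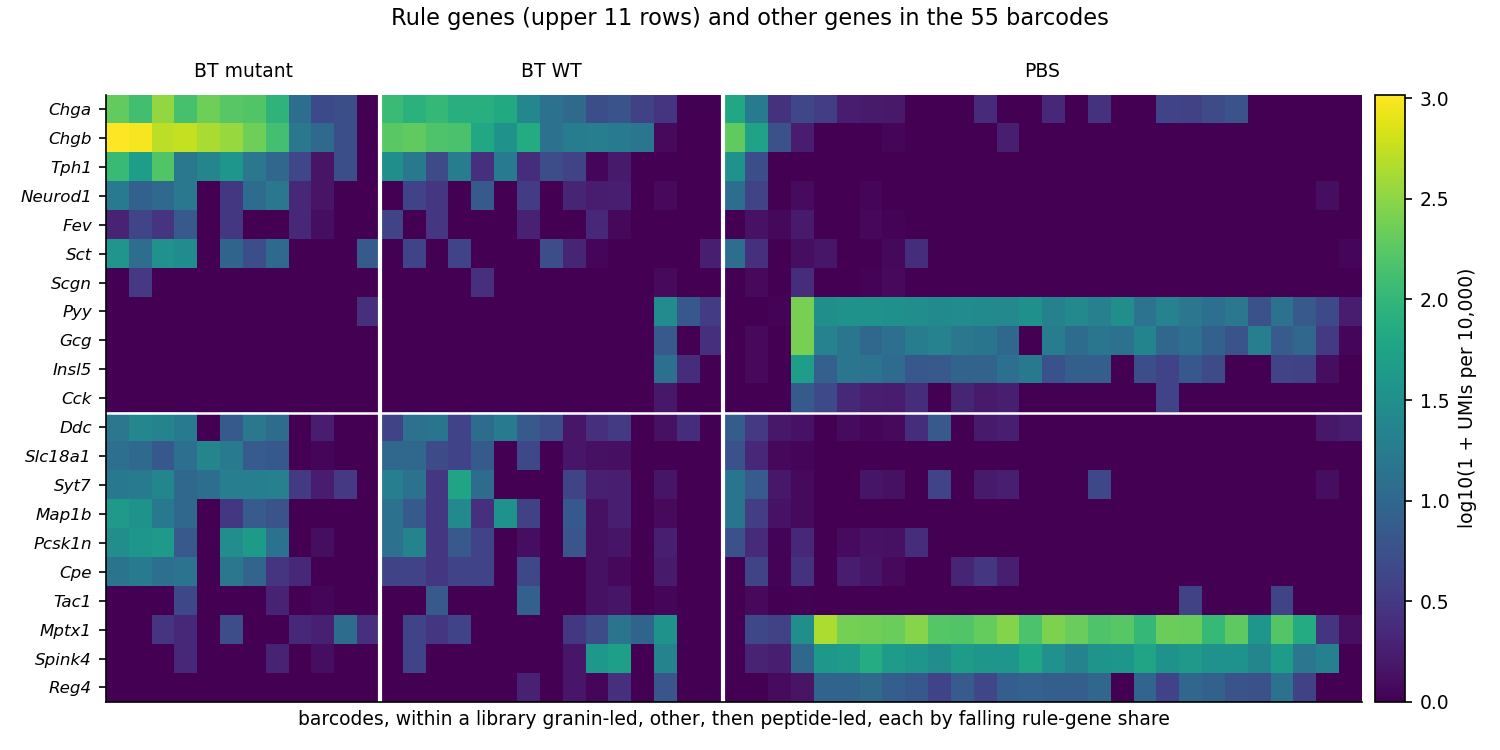
log10 of 1 plus UMIs per 10000 (colour) for the 11 rule genes and 10 other genes (rows) in the 55 members (columns) of the BT mutant, BT WT and PBS libraries, sorted within a library by leading genes and rule-gene share. Chga and Chgb run through the granin-led columns, while Pyy, Mptx1 and Spink4 run together through 22 of the PBS columns, where Gcg is at 0 in 1 and Insl5 in 3.

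Beside these genes, the pooled peptide-led set held processing genes at low counts. Of the 17 processing genes, 5 were at least 2-fold higher than in other epithelial barcodes, where 4.31% of all genes were, and 0 were at least 2-fold lower, where 6.18% were. Pcsk1n had 53 UMIs, of which 8 with BT WT and 45 with PBS, and Cpe had 66, of which 7 with BT WT and 59 with PBS. Scg2, a secretogranin, had 49 UMIs here and 0 in the granin-led set. The dominant PBS barcode alone gave 25 of the Pcsk1n, 37 of the Cpe and 37 of the Scg2 UMIs. Etv1, an ETS transcription factor, had 37 UMIs in 6 barcodes against 1 UMI in the granin-led set. Gpbar1, a bile acid receptor of L cells, had 17 UMIs in 5 PBS barcodes, and Gpr119, a lipid receptor, had 8 UMIs in 4 barcodes. Of the 26 transcription factors 7 were at least 2-fold higher and 0 lower, and of the 26 exocytosis genes 3 and 0. Of the 30 sensors 1 was higher (Gpbar1) and 3 were lower (Nr1h4, Slc15a1 and Tlr4). These counts too stand beside 4.31% of all genes higher and 6.18% lower.

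Of 18 progenitor and Notch genes, 7 were at least 2-fold higher in the peptide-led set and 2 at least 2-fold lower, against 5 and 1 in the granin-led set. Over all genes the shares were 4.31% and 6.18% in the peptide-led set, and 3.76% and 2.76% in the granin-led set. Ascl2, a stem cell factor, had 32 UMIs in 8 peptide-led barcodes and 28 UMIs in 2 granin-led ones. These values are small counts within a selection led by the 22 Mptx1 barcodes of PBS. Stem and transit-amplifying markers summed to 3 or more UMIs in 22 of 55 members, 1 with BT mutant, 5 with BT WT and 16 with PBS.

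Outside the rule, 876 genes had at least 100 CPM in the members of every library, and Mptx1 had the largest pooled ratio of member to other epithelial CPM (6.75). Its member levels were 117.6 CPM with BT mutant, 1373 CPM with BT WT and 12811 CPM with PBS, so the ratio rested on PBS. Gpx2, a glutathione peroxidase of crypt cells, came next, with a ratio of 6.05 and 228.2 CPM with BT mutant, 736.6 with BT WT and 1362 with PBS. It was detected in 3 of 12, 5 of 15 and 27 of 28 members of the BT mutant, BT WT and PBS libraries, so its ratio also leaned on PBS. The keratin gene Krt7 followed, with a ratio of 5.92 and 290.4 CPM with BT mutant, 266.5 with BT WT and 153.0 with PBS. The ion transport regulator Fxyd3 had a ratio of 5.77 and 574.0 CPM with BT mutant, 252.2 with BT WT and 287.5 with PBS. Unlike Mptx1 and Gpx2, Krt7 and Fxyd3 were not highest with PBS. Among the rest of the 25 leading genes, with ratios of 3.10 to 4.92, were Selenom, the orphan receptor Nr4a1, the homeodomain protein Hopx and 6 ribosomal protein genes.

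Markers of other cell types were looked for in the members. T cell and endothelial markers summed to 3 or more UMIs in 0 of 55, B cell markers in 6, fibroblast markers in 3, macrophage markers in 2, tuft markers in 8, mast cell markers in 8, and plasma cell and neuron or glia markers in 16 each. The plasma cell markers reached that sum in 1 member with BT mutant, 3 with BT WT and 12 with PBS, and the neuron or glia markers in 7 with BT mutant, 5 with BT WT and 4 with PBS. Most plasma and mast cell markers had no UMI. With BT mutant, BT WT and PBS, 1, 2 and 1 of 6 plasma cell markers had any. For mast cells these were 1, 1 and 3 of 8 markers, with Cpa3 at 0 in each library. Over the 19 immune and stromal markers, 3 of 12 members with BT mutant, 2 of 15 with BT WT and 9 of 28 with PBS reached 3 UMIs. B cell marker sums reached 17 UMIs with BT mutant, 12 with BT WT and 16 with PBS. Of 10 B cell markers, 8, 6 and 9 had UMIs in these libraries, with Pax5 at 0 in each. Fibroblast sums reached 153 UMIs with BT mutant, 3 with BT WT and 7 with PBS. Of 8 fibroblast markers, 6, 3 and 5 had UMIs in these libraries, with Col1a1 and Pdgfra at 0 in each. Goblet markers reached 3 UMIs in 6 members with BT mutant, 11 with BT WT and 27 with PBS, with sums of up to 43, 869 and 3032 UMIs in these libraries. In the granin-led and peptide-led comparisons above, the part of these transcripts was not tested. Without the members that reached 3 immune or stromal UMIs, the shares of epithelial barcodes were 0.226% with BT mutant, 0.281% with BT WT and 1.26% with PBS, each inside its interval above.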

How the data were processed

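Droplet libraries of colon cells were made with 3′ v3 reagents, per the labels' protocols, 1 library each for BT mutant, BT WT and PBS. The deposited matrices are raw UMI counts (whole numbers), and Cell Ranger 5.0.0 wrote them, as stated per the file headers. STAR and the build mm10 come from the submitters' processing notes. How barcodes were called as cells, which annotation was used and whether doublets were removed is not given in the sources used here. No doublet caller was run, and possible doublets remain among the members.

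The members, gene lists and motifs were chosen with earlier results of these data known. UMIs were added up per set and library and expressed per 1000000 UMIs of that set (CPM). The 2-fold counts and median log2 ratios add 10 CPM to both sides. The ratios of member to other epithelial CPM, and the ranking of the granin-led set, add none. That ranking takes at least 3 counts for the other epithelial sum. Shares have exact Clopper-Pearson and levels exact Poisson 95% intervals, and a count of 0 allows up to 3 counts. The scripts recovered known ratios, sets and interval coverage on simulated data. A library with under 20 members gets no fold, which left no fold between libraries. Members were also typed: a type needed at least 3 UMIs and 70% of the UMIs over 4 hormone lists. This gave 0 L-type of 9 typed members with BT mutant, 3 of 11 with BT WT (27.3%) and 25 of 27 with PBS (92.6%); the others were enterochromaffin-type. The 25 include the 22 barcodes rich in Mptx1, so L-type names a hormone share here and not a cell type. Per-barcode levels are UMIs per 10000 of the barcode's total, unthinned.

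Named genes were the rule genes, hormones with at least 20 UMIs over the members, the most abundant member of each other list, and the 25 genes with the largest member ratio among those with at least 100 CPM in the members of every library. Other genes were named after their values were seen. Positions of 39 of 39 genes looked up come from GENCODE vM21 on GRCm38, by identifier. Python 3.11.15, numpy 2.4.6, pandas 2.3.3, scipy 1.17.1 and matplotlib 3.10.9 were used. Alternatives were other filters, another typing threshold, thinning to 1500 UMIs and equal weight per member.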

Additional observations from a re-analysis of the deposited data

How the results depend on the processing

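Of 102 alternative values of the shares of members, granin-led, peptide-led and L-type barcodes, 89 stayed within the counting interval of the reported value and 13 did not. A mitochondrial limit of 10% left 858, 757 and 727 epithelial barcodes with BT mutant, BT WT and PBS. Members were then 0.932%, 0.925% and 3.16% of them. Granin-led shares were 0.932% with BT mutant, 0.793% with BT WT and 0.138% with PBS (1 barcode), the last inside its interval. The peptide-led share with PBS was 3.03%. A minimum of 1000 genes gave 3.02% members and 2.64% peptide-led with PBS. Goblet and colonocyte limits of 5%, or none, gave 0.101% peptide-led with BT mutant. Leaving out members with Mptx1 at 0.3% or more gave 0.399% members, 0.200% peptide-led and an L-type share of 60.0% (3 of 5) with PBS. The 5%, no-limit and Mptx1 settings were chosen after seeing the data, and the causes of the shifts were not tested. Levels of the rule genes in the member sums moved beyond counting error in 138 of 297 alternative values. The planned counts of genes 2-fold apart between libraries and list medians, with median-ratio scaling, a pseudocount of 50 and a 20-UMI minimum, were not run, since 2 libraries had under 20 members. No paired analysis was possible because each group has 1 library. With 12, 15 and 28 members, the counting intervals of the peptide-led shares of BT mutant and BT WT overlap.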
